A study of Mus musculus with 30 samples.

Results

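The genes described here are Hspd1, which encodes the mitochondrial chaperonin Hsp60, and 9 other heat shock chaperones: Hspe1, Hspa9, Hspa8, Hsp90aa1, Hsp90ab1, Hspa1a, Hspa1b, Hsph1 and Dnajb1. They are 10 of 14379 genes with a summed value in every library, and all 10 were among the 13223 genes that passed the filter on low values. Hspd1 was selected on its FPKM values in earlier results of these same libraries, in which it was lower with the angiotensin infusion and lower again with gastrodin. Those differences of Hspd1 are therefore given as values with no test. The other 9 genes are chaperones listed with it.

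The 30 libraries were made from abdominal aortas of C57BL/6 mice, all wild type, in 6 groups with 5 mice each. Of these, 4 groups received angiotensin II at 500 ng/kg/min together with a compound for 28 days: ethoxysanguinarine (AngII+ETH), baicalin (AngII+BAI) or gastrodin (AngII+GAS) at 5 mg/kg/d, or valsartan (AngII+VAL), a blocker of the type 1 angiotensin receptor, at 10.4 mg/kg/d. The AngII group received the infusion and saline, and the Control group received saline alone for the same 28 days. Angiotensin II narrows arteries and increases blood pressure. The age of the mice is not given in the labels. The 4 compound groups share 1 AngII group, so their comparisons with AngII are not independent of each other, and compound groups were compared with each other at unequal doses wherever valsartan was one of the pair.

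Heat shock proteins are chaperones: they hold unfolded proteins and help them fold. Hsp60 and its lid Hsp10, the product of Hspe1, form a barrel in the mitochondrial matrix that encloses a single protein chain, and the mitochondrial Hsp70, the product of Hspa9, pulls chains into the matrix and passes them on. In the cytosol, Hsc70 (Hspa8) and the Hsp90 proteins do this work at all times, while Hspa1a, Hspa1b, Hsph1 and Dnajb1 are known for their induction by heat and other stress through heat shock factor 1. Heat shock factor 1 binds inverted repeats of a short unit, GAA and its complement TTC, at the promoters of these genes.

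The annotation places Hspd1 at chr1:55077835-55088243 on the minus strand and Hspe1 at chr1:55088132-55091307 on the plus strand (mm10, GENCODE M21), back to back. The upstream starts of the shorter Hspd1 transcripts overlap Hspe1, and the library kit does not mark strand, so reads there cannot be told apart. The stretch between the start of the main Hspd1 transcript and the start of Hspe1, 107 bases at chr1:55088025-55088131, is shown because both genes start from it. It reads, 5′ to 3′ on the strand of Hspd1, with a heat shock element in capitals:
Hspd1 and Hspe1: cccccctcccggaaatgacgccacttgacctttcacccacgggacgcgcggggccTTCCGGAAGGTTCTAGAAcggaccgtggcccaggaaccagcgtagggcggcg
The capitals mark 18 bases that hold overlapping matches to TTCNNGAANNTTC and GAANNTTCNNGAA, the patterns of 3 units searched on both strands. They lie 34 bases from the start of the main Hspd1 transcript and 55 bases from that of Hspe1. Of 32851 promoter windows of 300 bases in RefSeq (GRCm38.p6), 0.603% held a pattern of 3 units and 15.1% one of the 2-unit patterns, GAANNTTC or TTCNNGAA.

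Hspa1a and Hspa1b, both of which encode the inducible Hsp70, lie near each other on chromosome 17 (chr17:34969190-34972156 and chr17:34956436-34959238, both on the minus strand). The 250 bases before their RefSeq starts, at chr17:34972157-34972406 and chr17:34959239-34959488, are shown because the pair was measured at nearly equal levels. Capitals mark the match to GAANNTTC:
Hspa1a: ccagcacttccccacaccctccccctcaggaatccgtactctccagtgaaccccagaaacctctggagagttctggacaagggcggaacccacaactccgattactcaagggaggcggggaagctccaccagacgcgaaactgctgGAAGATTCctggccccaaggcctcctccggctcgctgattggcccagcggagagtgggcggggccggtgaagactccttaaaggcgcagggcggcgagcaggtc
Hspa1b: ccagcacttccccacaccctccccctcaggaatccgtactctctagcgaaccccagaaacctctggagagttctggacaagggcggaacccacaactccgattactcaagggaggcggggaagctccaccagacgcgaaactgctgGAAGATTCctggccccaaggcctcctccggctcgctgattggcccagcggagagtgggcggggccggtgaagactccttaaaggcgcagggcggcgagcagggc
Counted from the 5′ end, the stretches differ by the substitutions C44T, T47C and T249G (the Hspa1a base first). Their coding sequences are 99.4% identical, while the sequence after the coding region is 45.6% identical. RefSeq windows were matched for 6 of the 10 genes. Hsph1 has a 3-unit match after its start, and neither pattern occurs in the windows of Dnajb1. These matches are letters in a window and do not show binding.

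Levels are FPKM (sequenced fragments scaled to the length of the transcript and the depth of the library), summed over the transcripts of a gene that every file lists. Between 69.8 M and 80.8 M reads lay behind the values of a library, so that 3 reads on 2 kb of transcript amount to 0.0186 to 0.0215 FPKM, below each gene sum given for the 10 genes. Markers fixed for smooth muscle cells (8 of 8), endothelial cells (8 of 8), fibroblasts (8 of 8) and macrophages (8 of 8) were measured and none was at 0 in every library. Markers of other tissues were measured too. Summed levels were 569 to 6046 FPKM for brown adipocytes (9 of 9 markers), 10.2 to 3298 FPKM for skeletal muscle (9 of 11) and 9.96 to 1100 FPKM for neurons (11 of 11). The AngII+BAI libraries 3 and 5 stood apart, with summed smooth muscle markers of 1612 and 2569 FPKM, against 7067 FPKM or more in the other 3 libraries of that group. In whole tissue, fewer cells of a type and less RNA per cell cannot be told apart.

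Hspd1 had its lowest group mean in AngII+GAS aortas and its highest in Control aortas. Its level in AngII+ETH was 73.4, 74.7, 73.7, 37.3 and 105.3 FPKM, and in AngII+BAI 125.1, 62.7, 68.5, 136.6 and 52.6 FPKM. In AngII+GAS it was 34.3, 25.7, 31.3, 35.3 and 36.5 FPKM. In AngII+VAL it was 27.0, 67.0, 26.9, 53.3 and 40.6 FPKM. In AngII it was 52.2, 42.5, 51.4, 56.1 and 45.9 FPKM, and in Control 116.9, 121.1, 79.2, 114.8 and 86.5 FPKM. Every AngII library was below every Control library, and every AngII+GAS library was below every AngII library. The AngII+ETH libraries ran from 37.3 to 105.3 FPKM and the AngII+BAI libraries from 52.6 to 136.6 FPKM. Most of them lay in neither the AngII nor the Control range. AngII+BAI libraries 1 and 4 were above every Control library, and AngII+ETH library 4 was below every AngII library.

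The group means were 72.9 ± 24.1 FPKM in AngII+ETH, 89.1 ± 38.8 FPKM in AngII+BAI, 32.6 ± 4.34 FPKM in AngII+GAS, 43.0 ± 17.3 FPKM in AngII+VAL, 49.6 ± 5.37 FPKM in AngII and 103.7 ± 19.3 FPKM in Control (SD, n = 5 each). Ordered from high to low, the groups were Control, AngII+BAI, AngII+ETH, AngII, AngII+VAL and AngII+GAS, and the ranges of each pair of neighbours in that order overlapped. On the log2(FPKM + 1) scale the difference was -1.03 with an SE of 0.268 in AngII against Control, and -0.59 with an SE of 0.268 in AngII+GAS against AngII. The median over all tested genes was 0.11 and -0.17 in these comparisons, and TMM factors, which bring those medians near 0, gave -1.16 and -0.41 for Hspd1. These differences chose the gene and carry no test. Genes whose ranges did not overlap made up 3.55% of all tested genes in AngII against Control and 2.31% in AngII+GAS against AngII.

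Other comparisons that use the AngII, AngII+GAS or Control libraries share them with the choice of Hspd1, and are also given as values. The log2 fold change was 0.48 in AngII+ETH against AngII, 0.73 in AngII+BAI against AngII and -0.29 in AngII+VAL against AngII, each with an SE of 0.268 and with overlapping ranges. Against Control it was -0.55 for AngII+ETH, -0.30 for AngII+BAI, -1.63 for AngII+GAS and -1.32 for AngII+VAL. The ranges of AngII+GAS and of AngII+VAL did not overlap that of Control. AngII+ETH and AngII+BAI did not overlap AngII+GAS either, with differences of 1.07 and 1.33, where 0.688% and 1.18% of all tested genes did not overlap.

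The pairs among AngII+ETH, AngII+BAI and AngII+VAL compare none of those libraries, and there Hspd1 was tested. The fit took its spread from all 30 libraries, however, so the intervals and p-values are not free of that choice. The SD was 24.1, 38.8 and 17.3 FPKM in AngII+ETH, AngII+BAI and AngII+VAL, and 5.37, 4.34 and 19.3 FPKM in AngII, AngII+GAS and Control. The shared SE may understate the spread of the groups compared. Hspd1 did not pass in any of the 3 pairs. The difference was 1.02 (95% interval 0.47 to 1.57) in AngII+BAI against AngII+VAL, where the limma p adjusted over all tested genes was 0.0661 and 0.597% of genes passed. Over the 24 other settings tried that p was between 0.0248 and 0.452, and it was under the threshold of 0.05 in 4 of them. These left out AngII+BAI library 2 (0.0248), AngII+BAI library 5 (0.0335) or AngII+BAI libraries 3 and 5 (0.0457), or had an oxidative phosphorylation score as a term (0.0329). Leaving out AngII+BAI libraries 3 and 5 together was not planned beforehand. In AngII+ETH against AngII+VAL the difference was 0.77 (0.22 to 1.32, limma adjusted p = 0.859), where 0.0% of genes passed. In AngII+ETH against AngII+BAI it was -0.25 (-0.80 to 0.30, limma adjusted p = 0.705), and again 0.0% of genes passed.

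Nearly all of the Hspd1 level came from 1 transcript. The transcript with 12 exons and 2423 bases, which holds the whole coding sequence of 1719 bases, made 92.4% to 99.97% of the gene sum over the 30 libraries, with a median of 96.8%. Its level was 23.9 to 34.5 FPKM in AngII+GAS, 41.6 to 54.9 FPKM in AngII and 76.4 to 121.0 FPKM in Control, so its order over these groups was that of the gene. In AngII+BAI against AngII+VAL it differed by 1.06 (SE 0.282), with a limma adjusted p of 0.112 over 23455 transcripts. A shorter transcript of 5 exons that begins farther upstream was between 0.0332 and 4.34 FPKM. A transcript of 3 exons was listed in 20 of the 30 files and is left out of the sum. Its highest level was 2.31 FPKM, in AngII+GAS library 1.

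Hspe1, the Hsp10 partner gene on the other side of the shared promoter stretch, did not follow Hspd1 in the gastrodin group. Its level in AngII+GAS was 146.3, 57.6, 107.5, 88.8 and 72.8 FPKM. In AngII it was 79.8, 78.6, 73.3, 83.9 and 84.2 FPKM, and in Control 82.5, 99.95, 104.7, 116.6 and 105.9 FPKM. The AngII+GAS libraries lay on both sides of the AngII libraries, and AngII overlapped Control through Control library 1 alone. The means were 93.5 ± 19.4 FPKM in AngII+ETH, 124.8 ± 57.8 FPKM in AngII+BAI and 76.3 ± 7.77 FPKM in AngII+VAL (SD, n = 5 each).

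None of the tests of Hspe1 in the main comparisons passed. The log2 fold change was 0.17 (95% interval -0.31 to 0.64) in AngII+GAS against AngII, with a limma adjusted p of 0.748, and the sign turned with an oxidative phosphorylation score (-0.06) or neuron and skeletal muscle scores (-0.02) as terms in the fit, and without AngII+GAS library 1 (-0.01). In AngII against Control it was -0.34 (-0.82 to 0.14, limma adjusted p = 0.615). In AngII+BAI against AngII it was 0.52 (0.05 to 1.00, limma adjusted p = 0.297), and 0.30 without AngII+BAI library 1.

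The ratio of Hspd1 to Hspe1 followed from these levels. It was 0.23, 0.45, 0.29, 0.40 and 0.50 in AngII+GAS, 0.65, 0.54, 0.70, 0.67 and 0.54 in AngII, and 1.42, 1.21, 0.76, 0.99 and 0.82 in Control. The 3 groups did not overlap in it. In AngII+ETH the ratio was 0.569 to 1.07, in AngII+BAI 0.560 to 1.02 and in AngII+VAL 0.332 to 0.795. The ratio holds the Hspd1 values that chose the gene, so it is a description.

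**Figure D1:**
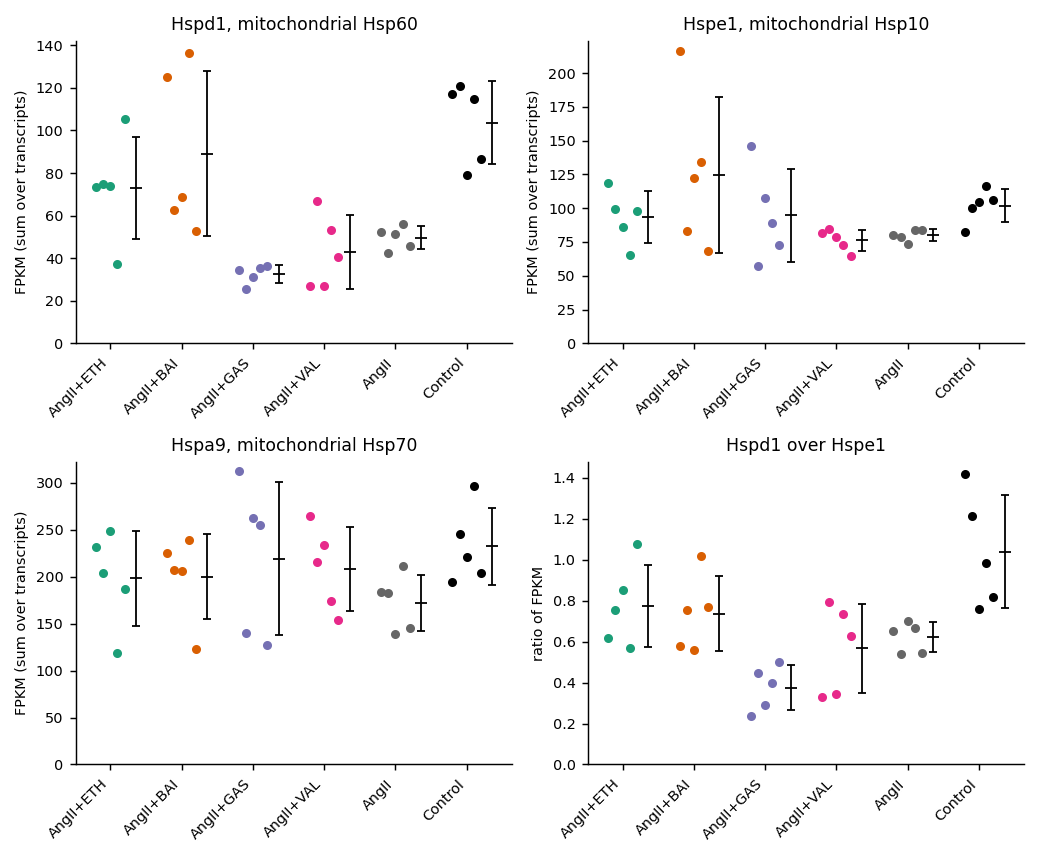
Levels of Hspd1, Hspe1 and Hspa9 (FPKM summed over transcripts) and the ratio of Hspd1 to Hspe1 in each library, by group, with the group mean and SD (n = 5) to the right of the points. The AngII+GAS points of Hspd1 lie between 25.7 and 36.5 FPKM, below all AngII points, while those of Hspe1 and Hspa9 spread across the AngII range.

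Hspa9, the mitochondrial Hsp70 (mortalin), was the most abundant of the mitochondrial members. Its level was 312.7, 139.9, 263.0, 254.8 and 126.9 FPKM in AngII+GAS. It was 183.7, 182.8, 138.9, 211.1 and 145.5 FPKM in AngII, and 194.0, 245.8, 221.3, 297.0 and 204.5 FPKM in Control. In AngII+GAS, 3 libraries were above every AngII library and 2 were at or below the low end of AngII. AngII overlapped Control. The log2 fold change was 0.27 (95% interval -0.22 to 0.77) in AngII+GAS against AngII, with a limma adjusted p of 0.602, and -0.43 (-0.92 to 0.06) in AngII against Control, with a limma adjusted p of 0.516. The first was 0.47 with TMM factors, 0.01 with the oxidative phosphorylation score as a term, and 0.12, 0.41 and 0.45 without AngII+GAS libraries 1, 2 and 5 in turn.

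The AngII+GAS libraries 2 and 5, which were low in Hspa9, also had the lowest summed brown adipocyte markers of that group, 2501 and 1375 FPKM, against 4149 to 6046 FPKM in the other 3. Their summed nuclear oxidative phosphorylation genes were 5232 and 4801 FPKM, against 9331 FPKM or more. Hspd1 did not split this way: it was 25.7 and 36.5 FPKM in these libraries, against 31.3 to 35.3 FPKM in the other 3. With the oxidative phosphorylation score as a term in the fit, the Hspd1 difference was -0.73 in AngII+GAS against AngII and -0.85 in AngII against Control, and with neuron and skeletal muscle scores as terms it was -0.73 and -0.84. The part of cell makeup in the differences was not tested beyond these fits.

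Hspd1 had lower correlations with Hspe1 and Hspa9 over the 30 libraries than these had with each other. On the log2 scale, Pearson's r between Hspd1 and Hspa9 was 0.252 (Spearman's rho 0.163), between Hspd1 and Hspe1 0.547 (rho 0.55) and between Hspe1 and Hspa9 0.649 (rho 0.711). The libraries share groups and cell makeup, so these values are descriptions with no p.

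The files also list transcripts that the authors assembled from the reads, with no gene name and no coordinates. Of these, 11443 are listed in every file and 1677 had a mean of at least 5 FPKM. After the values were seen, the assembled transcript with the lowest correlation with Hspd1 was looked at, with r = -0.614 (rho -0.482). Its level was 178.1, 63.0, 148.5, 130.2 and 52.8 FPKM in AngII+GAS. It was 81.1, 74.1, 49.4, 84.1 and 62.7 FPKM in AngII, and 30.2, 42.7, 79.8, 104.8 and 62.0 FPKM in Control. It was higher than Hspd1 in every AngII+GAS library and lower than Hspd1 in 4 of 5 Control libraries.

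When this transcript was added to Hspd1, the sum followed Hspa9 closely over the libraries. Pearson's r of the sum with Hspa9 was 0.959 (rho 0.934), and 0.953 without the 2 libraries farthest from the median of the sum. It was 0.964 for deviations from the group means, against 0.319 for Hspd1 alone. Over the sums of Hspd1 with each of the other assembled transcripts with a mean of at least 5 FPKM, the highest r with Hspa9 was 0.83. These were not matched in level to the chosen transcript, whose group means were 54.1 to 114.5 FPKM. A transcript far below Hspd1 in level can change the sum little, so 0.83 is not a comparison at like levels. The 5 genes most like the sum over 7305 genes compared were Hspa9 (r = 0.959), Prdx3 (0.924), a mitochondrial peroxidase, Dld (0.92), a subunit of the mitochondrial dehydrogenases, Trap1 (0.911), the mitochondrial Hsp90, and Tufm (0.911), a mitochondrial translation factor.

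The sum showed other differences between groups than Hspd1. Its mean was 134.4 ± 28.0 FPKM in AngII+ETH, 143.2 ± 28.2 FPKM in AngII+BAI, 147.1 ± 55.8 FPKM in AngII+GAS, 138.8 ± 24.3 FPKM in AngII+VAL, 119.9 ± 16.6 FPKM in AngII and 167.6 ± 29.9 FPKM in Control (SD, n = 5 each). The log2 difference was 0.21 (SE 0.217) in AngII+GAS against AngII, the opposite sign of Hspd1 alone, and -0.47 (SE 0.217) in AngII against Control, against -1.03 for Hspd1 alone. The assembled transcript made 75.1 ± 10.2% of the sum in AngII+GAS, 58.2 ± 5.55% in AngII and 37.3 ± 13.2% in Control. In AngII+ETH it made 45.9 ± 15.6%, in AngII+BAI 38.9 ± 19.5% and in AngII+VAL 67.7 ± 14.2%.

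Whether the assembled transcript overlaps Hspd1, and whether reads were divided between them, was not tested, because the files give neither its sequence nor its place. A low correlation with some assembled transcript was not particular to Hspd1: the lowest r over the same 1677 transcripts was between -0.808 and -0.524 for the other 9 genes.

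**Figure D2:**
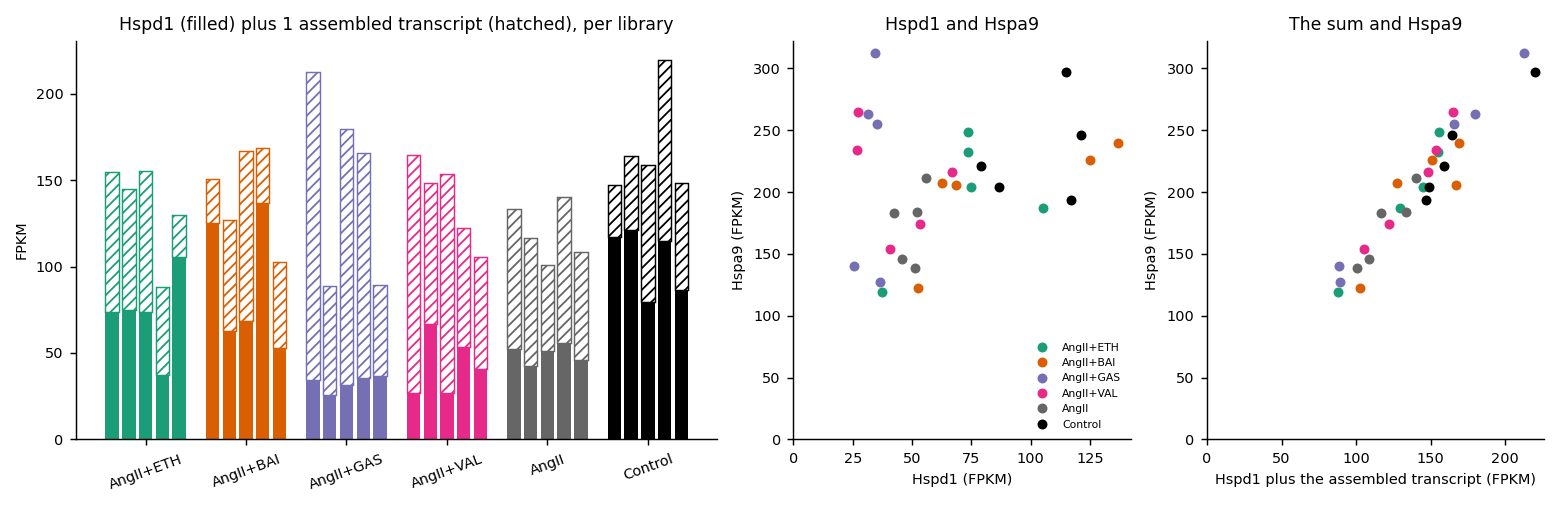
Left, Hspd1 (filled) and the assembled transcript (hatched) stacked in each library, in FPKM; middle and right, Hspa9 against Hspd1 alone and against the sum, 1 point per library, coloured by group. The filled part is smallest on average in AngII+GAS, and the points on the right lie close to a line (r = 0.959) while those in the middle do not (r = 0.252).

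The cytosolic chaperones of constant expression were measured at high levels, and their group ranges mostly overlapped. Hsp90ab1, the constitutive Hsp90, was 337 to 389 FPKM in AngII+ETH, 310 to 528 FPKM in AngII+BAI, 298 to 338 FPKM in AngII+GAS, 316 to 369 FPKM in AngII+VAL, 313 to 433 FPKM in AngII and 384 to 455 FPKM in Control. Hspa8, the constitutive Hsc70, was 243 to 374 FPKM in AngII+ETH, 190 to 456 FPKM in AngII+BAI, 178 to 339 FPKM in AngII+GAS, 213 to 332 FPKM in AngII+VAL, 294 to 364 FPKM in AngII and 297 to 480 FPKM in Control. In AngII+GAS against AngII the log2 fold change was -0.21 for Hsp90ab1 (95% interval -0.46 to 0.03) and -0.25 for Hspa8 (-0.69 to 0.18), with limma adjusted p of 0.42 and 0.587. With TMM factors they were -0.02 and -0.06, and without AngII+GAS library 4 that of Hspa8 was -0.10. Against Control, Hspa8 differed by -0.52 (95% interval -0.95 to -0.08, limma adjusted p = 0.9996) in AngII+GAS and by -0.50 (-0.94 to -0.07, limma adjusted p = 1) in AngII+VAL. Neither passed, and the ranges overlapped.

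Hsp90aa1, the Hsp90 form that stress can induce, had its lowest group mean in AngII+GAS, 60.7 FPKM. Its level there was 61.6, 41.6, 74.6, 53.6 and 72.1 FPKM. It was 135.9, 68.6, 64.7, 97.5 and 125.0 FPKM in AngII, and 89.8, 91.4, 128.1, 122.8 and 121.9 FPKM in Control. AngII+GAS overlapped the lower AngII libraries and lay below every Control library. The log2 fold change was -0.65 with an SE of 0.235 in AngII+GAS against AngII, with a limma adjusted p of 0.245, and -0.87 with an SE of 0.235 in AngII+GAS against Control, with a limma adjusted p of 0.642. Neither passed, and the first was between -0.79 and -0.52 when single libraries were left out. It was -0.46 with TMM factors and -0.43 with neuron and skeletal muscle scores as terms in the fit. Summed neuron markers were 835, 76.1, 16.6, 261 and 1100 FPKM in the AngII libraries, in the same order. Their part in the Hsp90aa1 difference was not tested beyond that fit. Over the 30 libraries Hsp90aa1 and Hsp90ab1 had r = 0.706 (rho 0.602).

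Among the 9 genes other than Hspd1, Hsp90aa1 and Hsp90ab1 had ranges that did not overlap in AngII+GAS against Control, where 1.08% of all tested genes did so. Hspd1 did not overlap there either, but is left out because it was chosen on these libraries. Hsp90ab1 differed by -0.38 (SE 0.121, limma adjusted p = 0.913) in that comparison. In AngII+VAL against Control the ranges of Hsp90ab1 did not overlap, against 1.61% of all tested genes, and those of Hspd1, again left out, did not either. These comparisons share the Control libraries, and the AngII+GAS and Control libraries helped to choose Hspd1.

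The inducible Hsp70 genes varied more between mice than between groups. Hspa1b was 14.7, 73.0, 13.8, 18.5 and 13.2 FPKM in AngII+ETH, with 1 library far above the other 4. It was 22.4, 11.9, 11.3, 8.78 and 31.8 FPKM in AngII+GAS, 18.5, 24.1, 17.1, 11.7 and 9.58 FPKM in AngII, and 6.74, 11.1, 18.2, 11.6 and 23.3 FPKM in Control. In AngII+BAI it was 7.07 to 21.7 FPKM and in AngII+VAL 8.25 to 31.2 FPKM. All groups overlapped. The SE of a difference between groups was 0.44, the largest among the 10 genes, and no test of Hspa1a or Hspa1b had a limma adjusted p below 0.599.

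Hspa1a followed Hspa1b library by library, with r = 0.99 (rho 0.979) and a ratio of Hspa1a to Hspa1b between 0.768 and 0.994. Their coding sequences are nearly identical, so the division of reads between them is uncertain. The genes most like Hspa1b after Hspa1a were Tnfrsf12a (r = 0.737), the receptor of the cytokine Tweak, Hbegf (0.691), a growth factor of the EGF family, Fam104a (0.648) and Ngef (0.645).

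Hsph1, the large Hsp110 that exchanges the nucleotide of Hsp70, was low in some libraries of 2 groups. Its level was 44.9, 59.7, 39.1, 37.0 and 30.4 FPKM in AngII+ETH, and 42.9, 22.7, 5.93, 36.03 and 19.8 FPKM in AngII+BAI. It was 15.1, 50.1, 38.5, 32.5 and 37.9 FPKM in AngII, and 36.4, 6.68, 12.6, 10.7 and 29.7 FPKM in Control. Control libraries 2, 3 and 4 and AngII+BAI library 3 were below the rest. The log2 fold change in AngII against Control was 0.98 (95% interval 0.13 to 1.84, limma adjusted p = 0.362), and did not pass. In AngII+ETH against Control it was 1.32 (0.46 to 2.17, limma adjusted p = 0.898).

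One transcript of Hsph1 made 39.9% to 94.5% of the gene sum over the libraries, and its level was 2.66, 6.69 and 5.89 FPKM in Control libraries 2, 3 and 4, against 32.1 and 26.7 FPKM in the other 2. The sum is over 5 transcripts, and how the authors divided reads between them bears on these values.

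Dnajb1, the Hsp40 that hands clients to Hsp70, was between 8.14 and 17.8 FPKM in all libraries. It was 10.3, 9.16, 10.3, 10.2 and 10.97 FPKM in AngII+VAL, against 11.3, 13.9, 17.8, 12.2 and 11 FPKM in AngII. The AngII+VAL libraries all lay below the AngII libraries, though the nearest pair nearly met. The log2 fold change was -0.33 with an SE of 0.143, with a limma adjusted p of 0.395, and -0.20 both with TMM factors and with quantile normalization. It was the 1 gene of the 10 without overlap in that comparison, against 2.96% of all tested genes. The AngII+ETH and AngII+BAI libraries also lay above all AngII+VAL libraries in Dnajb1 (11.4 to 14.8 and 11.8 to 16.0 FPKM), where 1.5% and 2.58% of all tested genes did not overlap, and the difference in AngII+BAI against AngII+VAL was 0.39 (limma adjusted p = 0.159). Summed skeletal muscle markers were 577 to 3001 FPKM in AngII+VAL and 10.2 to 73.1 FPKM in AngII. The Dnajb1 difference in AngII+VAL against AngII stayed negative with neuron and skeletal muscle scores as terms in the fit. It was between -0.41 and -0.20 over all settings that kept every library. The part of skeletal muscle was not tested beyond that fit.

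**Figure D3:**
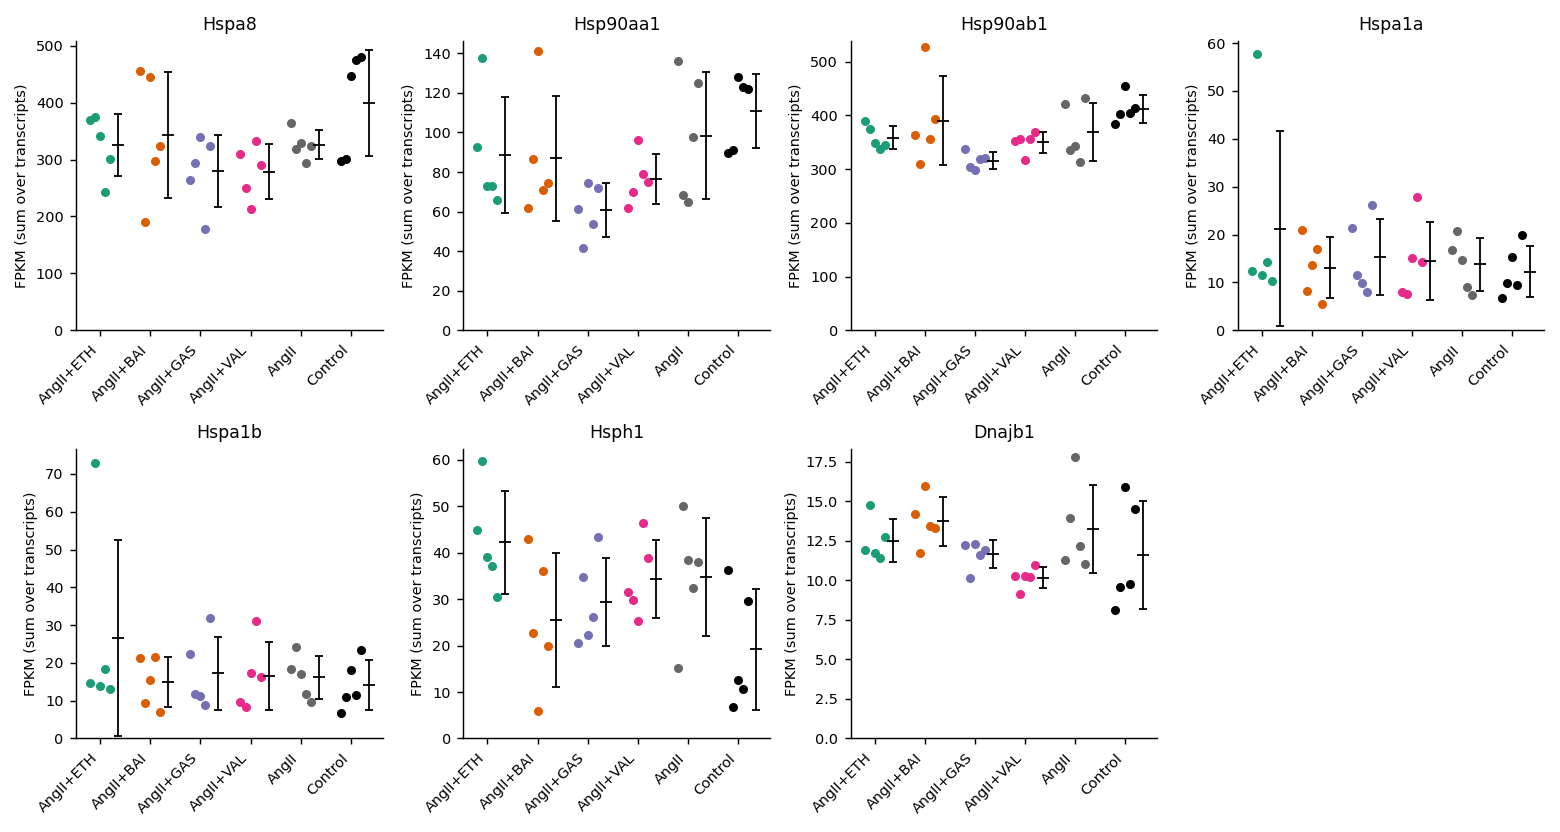
Levels of the 7 cytosolic members (FPKM summed over transcripts) in each library, by group, with the group mean and SD (n = 5) to the right of the points. The Hspa1a and Hspa1b panels show AngII+ETH library 2 at 57.65 and 73.0 FPKM, and the Hsp90aa1 panel shows AngII+GAS between 41.6 and 74.6 FPKM.

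None of the tested members passed an adjusted p of 0.05 in a main comparison, and few genes did. Hspd1 is left out of these counts, since the AngII libraries helped to choose it. In AngII against Control it was 0 of the 9 other genes, where 0.0% of all tested genes passed, and at an unadjusted p under 0.05 it was 1 of 9 (Hsph1), against 11.2% of all tested genes. In AngII+ETH against AngII it was 0 of 9, against 0.0% of all genes, and 0 of 9 at an unadjusted p under 0.05, against 3.41%. In AngII+BAI against AngII it was 0 of 9, against 0.333%, and 1 of 9 at an unadjusted p under 0.05 (Hspe1), against 14.6%. In AngII+GAS against AngII it was 0 of 9, against 0.0151%, and 1 of 9 at an unadjusted p under 0.05 (Hsp90aa1), against 13.7%. In AngII+VAL against AngII it was 0 of 9, against 0.0% of all genes, and 1 of 9 at an unadjusted p under 0.05 (Dnajb1), against 10.8%.

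**Figure D4:**
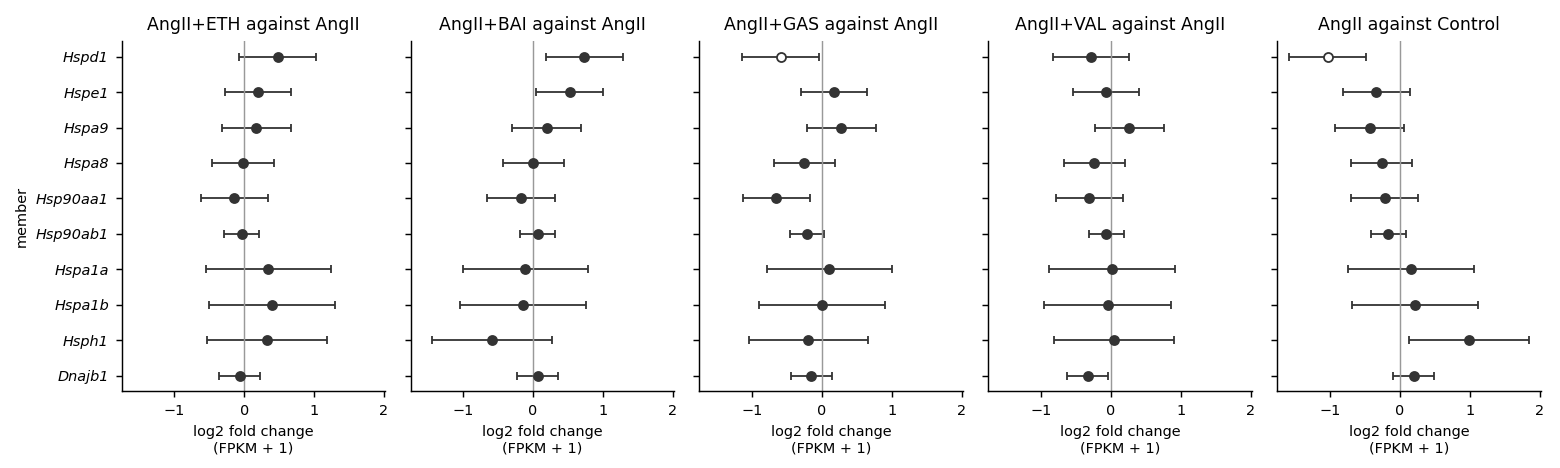
Log2 fold change of each member on the log2(FPKM + 1) scale with its 95% interval, in the 4 comparisons of a compound group with AngII and in AngII against Control. Open circles mark Hspd1 in the comparisons that chose it. Its filled circles are in comparisons that share the AngII libraries with that choice. The intervals of Hspd1 are description and no test in any panel. The intervals of Hspa1a, Hspa1b and Hsph1 are the widest, and those of Hsp90ab1 and Dnajb1 the narrowest.

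Other mitochondrial chaperones and proteases mostly had the opposite sign to Hspd1 in the gastrodin comparison. Of 19 such genes, which include Trap1, the import motor subunits and the Lon and Clp proteases, none passed in a main comparison. In AngII+GAS against AngII 16 of the 19 had a positive log2 fold change, with a median of 0.27 against -0.17 over all tested genes. In AngII against Control 18 of the 19 had a negative one, with a median of -0.31 against 0.11. Quantile normalization, TMM factors and rescaling without mitochondrially encoded genes kept the sign of both medians. The largest values in AngII against Control were those of Pam16, a part of the import motor, at -1.19 (SE 0.87), and Phb2, a prohibitin, at -1.53 (SE 0.802). In AngII+GAS against AngII they were those of Clpb (0.54, SE 0.244) and Pam16 (0.70, SE 0.87). The SD of Pam16 exceeded its mean in AngII+GAS (14.4 ± 21.5 FPKM) and in Control (20.2 ± 22.3 FPKM).

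Nuclear genes of oxidative phosphorylation, whose products are built in the same organelle, had the same signs as these chaperones. None of 33 passed. In AngII+GAS against AngII 32 of 33 were positive, with a median of 0.36, and in AngII against Control 32 of 33 were negative, with a median of -0.50. Uqcrc1, a subunit of complex III, had 0.53 in AngII+GAS against AngII and -0.69 in AngII against Control, and Sdhb, a subunit of complex II, had 0.53 in AngII+GAS against AngII. Summed brown adipocyte markers were 1375 to 6046 FPKM in AngII+GAS, 569 to 3076 FPKM in AngII and 1327 to 4024 FPKM in Control, and their part in both lists was not tested. Of 9 tested mitochondrially encoded genes none passed. The medians of these 9 were 0.54 in AngII+GAS against AngII and -0.57 in AngII against Control. They were 0.73 and -0.70 with TMM factors, and 0.01 and -0.09 with quantile normalization. Quantile normalization gives equal ranks equal values in every library, so it can shift genes at the top of the range little. Their largest values in AngII+GAS against AngII were those of mt-Co3 (0.84, SE 1.52) and mt-Nd5 (0.74, SE 0.348). In AngII against Control they were those of mt-Cytb (-2.91, SE 2.39) and mt-Co3 (-1.39, SE 1.52).

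The helpers of the cytosolic members showed no call in AngII+GAS against AngII or AngII against Control. Their largest log2 fold changes had an SE between 0.146 and 0.968 and a limma adjusted p of at least 0.175. Over all lists, the largest changes in these comparisons had an SE between 0.14 and 2.39 and the same lowest limma adjusted p. Among 17 genes of the Hsp70 family and its exchange factors, these were Stub1 (-2.14), a ubiquitin ligase, and Bag1 (0.91), an exchange factor, in AngII+GAS against AngII, and again Stub1 (1.06) and Bag1 (-0.91) in AngII against Control. Among 15 cytosolic J-domain proteins, the partners of Hsp70, they were Dnajb5 (-0.80) and Dnaja1 (-0.47) in AngII+GAS against AngII, and Dnajb4 (-1.07) and Dnajc21 (-0.48) in AngII against Control. Among 14 co-chaperones of Hsp90 they were Chordc1 (-0.52) and Stip1 (-0.41) in AngII+GAS against AngII, and Ptges3 (0.91) and Fkbp5 (0.89) in AngII against Control. The co-chaperones were negative for 12 of 14 in AngII+GAS against AngII, with a median of -0.27 against -0.17 over all genes, and for 9 of 14 with TMM factors.

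Small heat shock proteins had a median of -0.40 in AngII+GAS against AngII (7 tested of 8, of which 5 were negative), against -0.17 over all tested genes. With TMM factors it was -0.21 and with quantile normalization -0.28, with 4 of 7 negative in each. The largest values were those of Hspb1 (-0.52) and Hspb6 (-0.47) in that comparison, and of Hspb2 (0.50) and Hspb6 (-0.38) in AngII against Control. The 14 genes of the cytosolic chaperonin and prefoldin had a median of -0.22 in AngII+GAS against AngII, against -0.17 over all tested genes, and of -0.03 with TMM factors and -0.09 with quantile normalization, with Pfdn4 (-0.53) and Vbp1 (-0.48) the largest. In AngII against Control their median was 0.04, which turned to -0.08 with TMM factors, with Pfdn4 (0.47) and Pfdn6 (-0.38) the largest.

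The 4 genes of heat shock factors, which switch on inducible chaperone genes, and their binding protein had a median of -0.26 in AngII+GAS against AngII, with 3 of 4 negative, and 0.23 in AngII against Control, and none passed. With TMM factors the medians were -0.14 and 0.14. Hsf1, the main factor of the heat shock response, was 7.72 ± 1.87 FPKM in AngII+GAS, 7.62 ± 2.61 FPKM in AngII and 6.18 ± 2.57 FPKM in Control (SD, n = 5 each), and Hsbp1 differed by -0.05 in AngII+GAS against AngII and 0.10 in AngII against Control. Hsf1 differed by 0.06 and 0.28 in the same comparisons. Hsf2 and Hsf4, named after their values were seen, had overall means of 2.34 and 0.691 FPKM. Hsf2 averaged 1.62 FPKM in AngII+GAS, 3.18 FPKM in AngII and 2.21 FPKM in Control, and differed by -0.65 with an SE of 0.176 in AngII+GAS against AngII (limma adjusted p = 0.169) and by 0.37 in AngII against Control (limma adjusted p = 0.431). Hsf4 differed by -0.46 (limma adjusted p = 0.294) and 0.17 (limma adjusted p = 0.778) in the same comparisons.

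Of the genes of neighbouring stress responses none passed in the 5 main comparisons. Of the integrated stress response (11 tested of 12), the largest values were those of Mthfd2 (-0.77) and Phgdh (-0.69) in AngII+GAS against AngII, and Mthfd2 (0.69) and Atf5 (0.34) in AngII against Control. Of the immediate early genes (17 tested of 18), which report handling and dissection as well as stimulation, they were Atf3 (0.41) and Jund (-0.36) in AngII+GAS against AngII, and Fosl2 (1.09) and Nr4a1 (-0.92) in AngII against Control. AngII+ETH library 2, high in Hspa1a and Hspa1b, had an Atf3 level of 13.5 FPKM, against 2.99 to 5.78 FPKM in the other 4 libraries of that group, and its summed immediate early genes were 298 FPKM, against 232 to 362 FPKM.

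In all lists together 6 genes passed in some comparison. Hspa12a, a distant Hsp70 relative, was 3.39 ± 0.672 FPKM in AngII+BAI and 9.22 ± 5.5 FPKM in AngII (limma adjusted p = 0.0432), where 0.318% of all tested genes were lower. Htra2, a mitochondrial protease, was 11.5 ± 3.72 FPKM in AngII+BAI and 6.41 ± 1.41 FPKM in AngII+VAL (limma adjusted p = 0.0355), where 0.537% were higher. Of 12 chaperones of the endoplasmic reticulum, 4 passed in AngII+BAI against Control, all higher in AngII+BAI, where 1.1% of all tested genes were higher. These were Hsp90b1, the Hsp90 of that compartment (252.0 ± 72.8 against 138.4 ± 14.4 FPKM), Pdia3 (236.1 ± 75.6 against 123.0 ± 15.9 FPKM), Pdia6 (116.7 ± 43.7 against 58.9 ± 4.47 FPKM) and Dnajb11 (40.5 ± 11.1 against 25.5 ± 2.1 FPKM), each with a limma adjusted p between 0.029 and 0.0489 and n = 5 per group.

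Over 24 other settings each of these 6 genes was under the threshold in 8 to 13, with a highest limma adjusted p of 0.334 to 0.632. Leaving out AngII+BAI library 1 or 3 ended every one of the 6 calls. The 4 endoplasmic reticulum calls also ended without AngII+BAI library 5 and without Control library 1, 2, 3 or 4, and that of Dnajb11 without Control library 5. The Hspa12a call ended without AngII+BAI library 4 or AngII library 1, 4 or 5, and the Htra2 call without any 1 of the AngII+VAL libraries. Without AngII+BAI libraries 3 and 5 together the limma adjusted p was 0.149 to 0.225 for the 4 endoplasmic reticulum genes, 0.0511 for Hspa12a and 0.0233 for Htra2. That setting was not planned beforehand. Summed macrophage markers were 2804 and 1843 FPKM in AngII+BAI libraries 3 and 5, against 399 to 733 FPKM in the other 3 and 284 to 503 FPKM in Control, and their part in these calls was not tested. Endoplasmic reticulum chaperones with the largest log2 fold changes in the comparisons with gastrodin and angiotensin were Sdf2l1 (-0.45) and Dnajb9 (-0.40) in AngII+GAS against AngII, and Sdf2l1 (0.50) and Pdia4 (0.31) in AngII against Control.

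Genes whose level was most like that of Hspd1 over the 30 libraries, among 7305 with a mean of at least 5 FPKM, were Ndufa12 (r = 0.626), a complex I subunit, Ola1 (0.623), an ATPase of the cytosol, Ahsa1 (0.593), the activator of the Hsp90 ATPase, Naa50 (0.591), an acetyltransferase of protein amino ends, and Polr2k (0.576), an RNA polymerase subunit.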

How the data were processed

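Total RNA was depleted of ribosomal RNA and made into libraries with a kit that does not mark strand, per the labels' protocols. The authors deposited FPKM per transcript, a unit inferred from the values. The build was mm10 and limma was used, per the submitters' processing notes. How reads were aligned, assembled and quantified is not given in the sources used here.

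Transcripts were matched to GENCODE M21 (33638 of 33677 Ensembl IDs) and summed per gene over the 27797 listed in all files. Depth was read from low values, of which 99.0% to 99.6% lay within 0.1 read of a whole number. A gene was tested if 5 or more of the 30 libraries had it at 1 FPKM or above. Log2(FPKM + 1) was fitted with limma 3.58.1 in R 4.3.3 (a mean per group over all libraries, 24 residual degrees of freedom, eBayes with trend and robust, two-sided), and p-values of each comparison were adjusted by Benjamini-Hochberg over 13223 genes (threshold 0.05). Tables and plots came from Python 3.11.15. Fold changes on this scale understate those of low genes. The fit was tested on simulated data with independent genes and the same SD in every group, so unequal spreads between groups were not covered. Floors cover counting error only. No 2 libraries were copies of each other: at most 0.178% of genes had equal FPKM in 2 libraries, and the highest r was 0.926. Libraries are numbered in accession order, a name only.

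Members, lists and tests were chosen with earlier results of these data known. Named genes were the 10 members, every list member that passed, and, among genes with a mean of at least 5 FPKM over all libraries, the 2 of each list with the largest change in AngII against Control and in AngII+GAS against AngII and the 5 most correlated with Hspd1 and with Hspa1b. A gene that this rule names is not reported here. Other genes and the assembled transcript were named after their values were seen. Kidney and adrenal markers (3 of 8 measured) summed to 1.09 to 10.6 FPKM, and the lowest and highest sums were 2344 and 6952 FPKM for white adipocytes, 43.6 and 340.4 FPKM for Schwann cells, and 2022 and 28260 FPKM for erythrocytes.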

Additional observations from a re-analysis of the deposited data

Results flagged for a closer look

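Among 60 sets of 5 libraries (10 genes in 6 groups), 3 had an end value whose gap to the next exceeded 0.71 of the range on the log2 scale, a limit that chance passes in about 1 of 20 sets. Hspa9 was 122.6 FPKM in AngII+BAI library 5, against 205.7 to 239.3 FPKM in the other 4. That library also had the highest summed fibroblast markers, 9325 FPKM, against 1833 to 2921 FPKM in the other 4, and the lowest summed nuclear oxidative phosphorylation genes, 3745 FPKM. Hspa1a was 57.65 FPKM in AngII+ETH library 2, against 10.39 to 14.2 FPKM in the other 4, and Hspa1b was 73 FPKM there, against 13.15 to 18.5 FPKM. Bag3 and Hspb1, further targets of heat shock factor 1, were 39.9 and 502.2 FPKM in that library, the highest of the group, against 30.1 to 37.0 and 329.6 to 391.6 FPKM. Of the other members, Hsph1 (59.65 FPKM, against 30.42 to 44.89), Dnajb1 (14.79, against 11.4 to 12.75) and Hsp90aa1 (137.7, against 66 to 92.68) were highest there too. So was Hspa8 (373.9, against 243.1 to 369.4). Hspd1, Hspe1, Hspa9 and Hsp90ab1 were not highest in that library. The part of cell makeup or handling in these values was not tested.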

How the results depend on the processing

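No paired analysis was possible because the labels give no replicate numbers shared between groups. Every alternative, leaving out each library in turn included (0 to 0), kept the count of members passing at 0 in each main comparison. The Hspd1 difference was -1.13 to -0.97 in AngII against Control and -0.65 to -0.51 in AngII+GAS against AngII with 1 library left out. With TMM factors the second was -0.41, where the median of all genes moved to -0.02. With the assembled transcript added, an alternative chosen after seeing the data, the differences were -0.47 and 0.21. The cause of these moves was not tested.

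Of 749 values of single genes under 14 alternatives 39 changed sign, all at an absolute log2 value of at most 0.255. Those below are each against AngII. Rescaled without mitochondrially encoded genes, AngII+BAI gave -0.0684 (Dnajb1), -0.0745 (Hsp90ab1) and -0.137 (Hspa8), AngII+VAL -0.0160 (Hspa1a) and AngII+GAS -0.000438 (Hspa1b). With neuron and muscle scores, AngII+BAI gave -0.00667 (Dnajb1), 0.0174 (Hsp90aa1) and -0.0419 (Hspa9), AngII+GAS -0.0785 (Hspa1a), -0.164 (Hspa1b) and -0.0227 (Hspe1), and AngII+VAL -0.0583 (Hspa1a) and -0.112 (Hspa9). With quantile normalization, AngII+ETH gave 0.0298 (Dnajb1), AngII+BAI -0.120 (Hsp90ab1) and -0.205 (Hspa8), AngII+GAS 0.0177 (Dnajb1), and AngII+VAL 0.0746 (Hspa1b) and 0.00144 (Hspe1). With TMM factors, AngII+ETH gave 0.0285 (Dnajb1), 0.0640 (Hsp90ab1) and 0.0802 (Hspa8), AngII+GAS 0.0235 (Dnajb1), and AngII+VAL 0.0744 (Hsp90ab1), 0.083 (Hspa1b) and 0.0706 (Hspe1). With array weights, AngII+ETH gave 0.00762 (Hspa8), AngII+BAI -0.0425 (Hsp90ab1) and -0.248 (Hspa8), AngII+GAS -0.168 (Hspa1a) and -0.255 (Hspa1b), and AngII+VAL -0.000863 (Hspa1a). With the oxidative phosphorylation score, AngII+BAI gave -0.0187 (Hspa8) and -0.0237 (Hspa9), AngII+GAS -0.0468 (Hspa1b) and -0.0582 (Hspe1), and AngII+VAL -0.0422 (Hspa1a). Pseudocounts of 0.1 and 0.5 gave -0.00317 and -0.00118 for Hspa1b in AngII+GAS.

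With 1 library left out, 41 of 570 values changed sign. In AngII+ETH the ranges were -0.119 to 0.0446 (Dnajb1), -0.0892 to 0.0280 (Hsp90ab1), -0.0702 to 0.0846 (Hspa8), -0.0894 to 0.506 (Hspa1a) and -0.0428 to 0.554 (Hspa1b). In AngII+BAI they were -0.0473 to 0.144 (Hsp90ab1), -0.115 to 0.199 (Hspa8), -0.306 to 0.133 (Hspa1a) and -0.308 to 0.0687 (Hspa1b). In AngII+GAS they were -0.00609 to 0.326 (Hspe1), -0.113 to 0.286 (Hspa1a) and -0.249 to 0.188 (Hspa1b). In AngII+VAL they were -0.245 to 0.189 (Hspa1a), -0.304 to 0.146 (Hspa1b) and -0.220 to 0.197 (Hsph1). In AngII against Control the range was -0.0152 to 0.345 (Hspa1a).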
